A study of Rattus norvegicus with 38 samples.

Results

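Endothelial cells line the blood vessels, and in the brain they also form the blood-brain barrier. Sealed junctions keep solutes from passing between the cells, so glucose crosses through a carrier and many foreign compounds are pumped back into the blood. The same cells respond to vascular endothelial growth factor (VEGF), make nitric oxide that relaxes the vessel wall, and release a factor that tethers platelets. The 6 genes described here cover these functions. They were chosen by gene identifier (ID below), and 6 of 6 were among the 32883 IDs of the count table. Slc2a1 (ENSRNOG00000007284) encodes the glucose carrier GLUT1, and Abcb1a (ENSRNOG00000008012) encodes P-glycoprotein, an efflux pump of the barrier. Flt1 (ENSRNOG00000000940) and Kdr (ENSRNOG00000046829) encode receptors for VEGF, of which Kdr carries most of the growth signal, while Flt1 binds the ligand tightly and signals weakly. Nos3 (ENSRNOG00000009348) encodes endothelial nitric oxide synthase, and Vwf (ENSRNOG00000019689) encodes von Willebrand factor. Endothelium is not the only source of these transcripts: Slc2a1 is also transcribed in glia, for example, and Vwf in megakaryocytes.

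The study cut blood vessels and clusters of neurons from the cortex of 19 numbered rats by laser microdissection, so that each animal gave 1 vessel library and 1 neuron library, 38 in all. SHRSP is the stroke-prone spontaneously hypertensive rat, a strain that develops high blood pressure and small vessel disease, and Wistar rats were the comparison strain. Each of the 4 animal groups was sampled in both materials: late SHRSP (5 animals, 32 to 34 weeks old), late Wistar (4 animals, 32 to 34 weeks), early SHRSP (5 animals, 24 to 25 weeks) and early Wistar (5 animals, 24 to 25 weeks). The stage is a stage of hypertension, and the labels give it to the Wistar rats of the same age too. No treatment is given in the labels, nor how the vessels or neurons were recognised for cutting. Cut tissue holds several cell types, so fewer endothelial cells in a piece and less RNA per endothelial cell cannot be told apart in these bulk libraries.

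The libraries held 1198386 to 4963429 counts each. They fell into 2 sets by the share of counts taken by the most abundant ID (ENSRNOG00000043866) in the neuron library of an animal. That share was 20.4 to 35.5% in 11 animals (high-share animals below) and 4.34 to 10.7% in 8 animals (low-share animals). The 8 low-share animals were all at the early stage, 4 SHRSP (374, 377, 380 and 386) and 4 Wistar (340, 343, 346 and 368), while the high-share animals were the 9 late animals and 1 early animal of each strain (383 SHRSP and 349 Wistar). In the vessel libraries this share overlapped between the sets, at 9.69 to 40.6% in high-share and 6.45 to 16.3% in low-share animals. The vessel libraries of the 2 sets did differ in the number of IDs with a count, 4104 to 8752 in low-share and 9875 to 11974 in high-share animals. Stage and library set can therefore hardly be told apart. Values without the low-share animals stand beside the results that rest on them; each strain has 1 early high-share animal, so any such value that involves an early group takes its SE from the spread of the late animals.

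Promoters are shown because the 6 genes were higher together in the vessels of the high-share animals, as described further on. RefSeq (rat assembly GRCr8) gave a window of 250 bases before to 50 bases after a start for 5 of the 6 genes, and Vwf is named only. Both strands were searched for CAGGAA and CCGGAA (cores of sites for ETS factors, a family active in endothelium), GGGCGG (the GC box) and ACGTG (the core of hypoxia response elements). No matches overlapped within these windows. Shown are Slc2a1 (chr5:138002272-138002571, plus strand), which holds 3 GC boxes and 1 ACGTG, Flt1 (chr12:12333180-12333479, plus strand), which holds 3 GC boxes, and Kdr (chr14:32571813-32572112, plus strand), the only one of the 5 with CCGGAA. Each is written from 5′ to 3′, with the matches in capitals.
Slc2a1: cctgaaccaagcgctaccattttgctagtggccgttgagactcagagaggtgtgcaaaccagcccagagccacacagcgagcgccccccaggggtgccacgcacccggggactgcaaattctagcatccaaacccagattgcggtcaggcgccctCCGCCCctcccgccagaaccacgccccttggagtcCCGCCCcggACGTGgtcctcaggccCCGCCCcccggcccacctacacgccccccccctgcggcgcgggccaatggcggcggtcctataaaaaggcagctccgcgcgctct
Flt1: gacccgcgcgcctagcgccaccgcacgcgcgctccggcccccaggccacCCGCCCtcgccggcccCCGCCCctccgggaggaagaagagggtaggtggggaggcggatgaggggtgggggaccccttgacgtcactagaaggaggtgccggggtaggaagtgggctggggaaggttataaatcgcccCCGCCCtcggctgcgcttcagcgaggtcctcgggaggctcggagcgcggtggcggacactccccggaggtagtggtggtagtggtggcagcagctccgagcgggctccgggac
Kdr: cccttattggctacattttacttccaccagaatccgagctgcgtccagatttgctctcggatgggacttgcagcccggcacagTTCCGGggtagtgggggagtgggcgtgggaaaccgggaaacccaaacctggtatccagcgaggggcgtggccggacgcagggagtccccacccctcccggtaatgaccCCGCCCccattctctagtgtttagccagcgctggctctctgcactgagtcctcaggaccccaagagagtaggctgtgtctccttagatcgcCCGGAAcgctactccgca
The GC box was present in 5 of 5 windows, against 33.06% of the 33469 promoters of the RefSeq table. An ETS core of either kind was in 2 of 5 (CCGGAA in Kdr, CAGGAA in Nos3), against 40.01% of all promoters, and ACGTG in 1 of 5, against 19.25%. These matches describe letters in a window and were not set against any measurement of binding.

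In vessels of the high-share animals every one of the 6 genes had counts in every library. Each level is a CPM, a count scaled to library size, after TMM scaling within a material. Reads of such libraries lie at the 3′ ends of transcripts, and a gene's count depends on where the annotation places that end, so levels are compared across libraries and not between genes. Slc2a1 was 59.0 to 275 CPM in the 11 high-share vessel libraries, with a median of 108 CPM. Abcb1a was 122 to 336 CPM there, with a median of 229 CPM. The 2 transporter genes differed in spread, with a coefficient of variation (SD over mean) of 0.512 for Slc2a1 and 0.295 for Abcb1a. Flt1 was the steadiest of the 6, at 92.8 to 213 CPM with a median of 154 CPM and a coefficient of variation of 0.200. Kdr was 7.86 to 69.9 CPM with a median of 26.4 CPM and a coefficient of variation of 0.506. Among the genes for endothelial products, Nos3 was 29.3 to 87.0 CPM with a median of 56.7 CPM, and Vwf was 78.3 to 191 CPM with a median of 122 CPM.

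**Figure D1:**
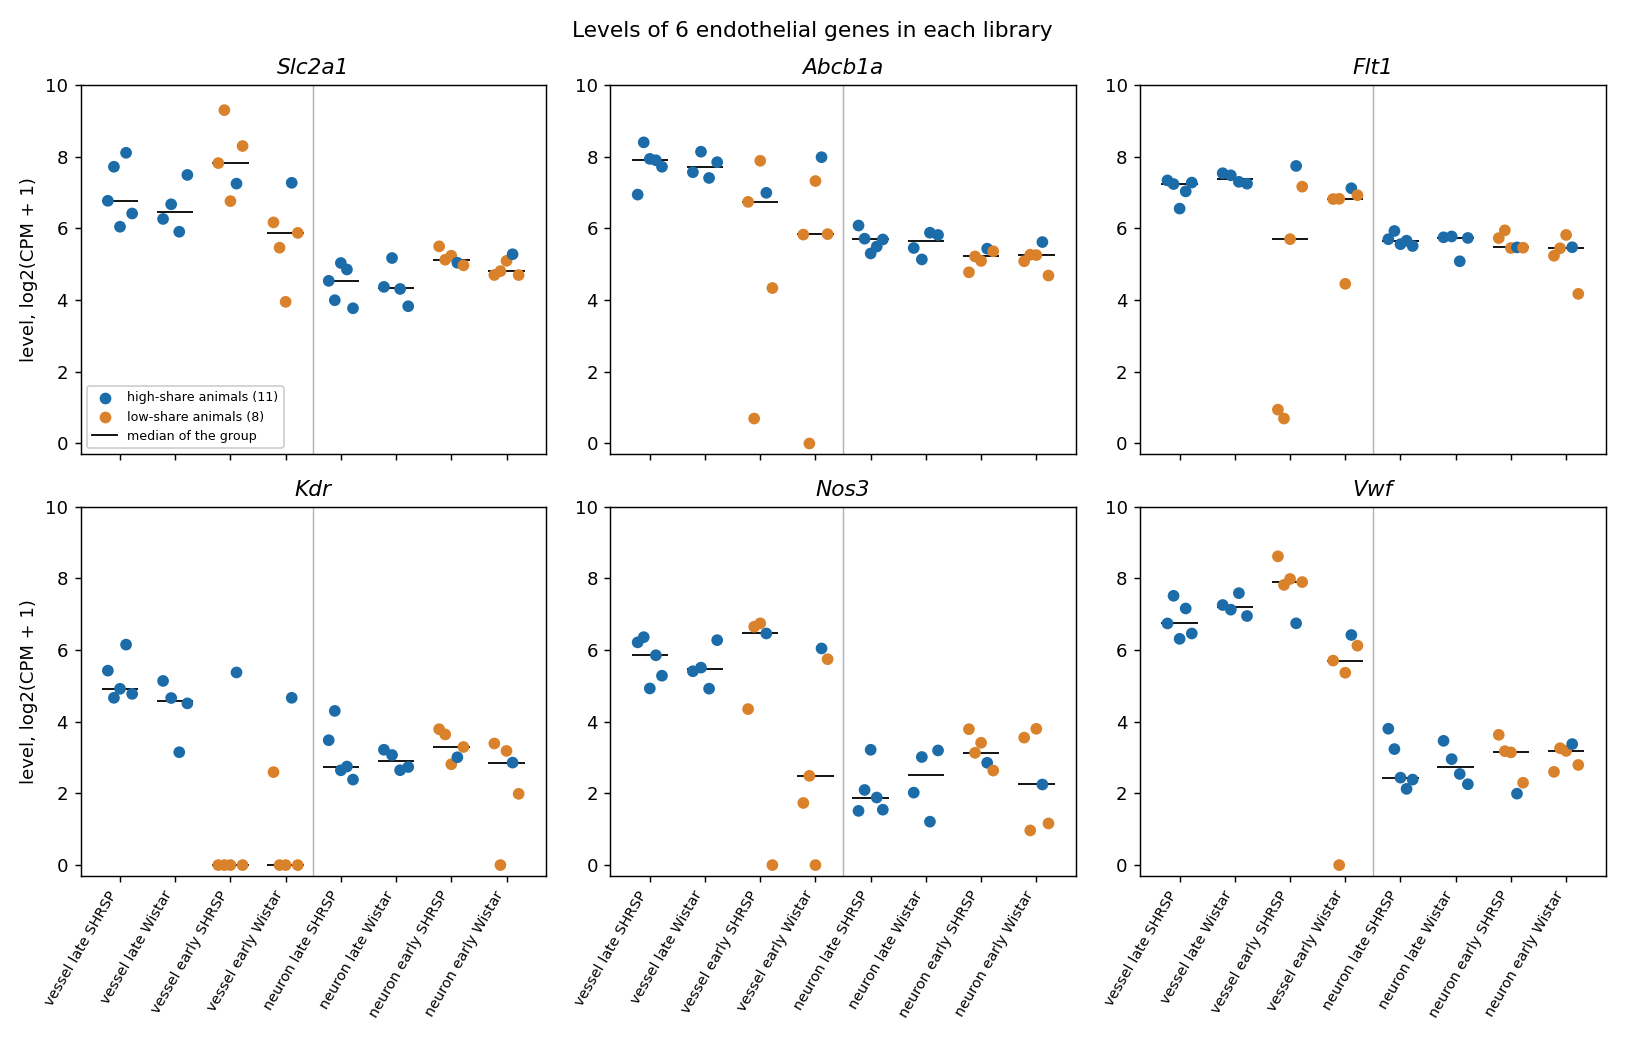
Level of each gene, as log2(CPM + 1) after TMM scaling within each material, in vessel libraries (left of the grey line) and neuron libraries (right), by group. Points are libraries, coloured by library set, and bars are group medians; high-share vessel libraries lie above 0 for every gene, while low-share vessel libraries reach 0 for Abcb1a, Kdr, Nos3 and Vwf.

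The low-share vessel libraries differed from this pattern in that individual genes were missing from individual libraries. Of the 48 values (6 genes in 8 low-share vessel libraries), 11 were 0 and 14 were at most 3 counts. In the vessels of high-share animals 0 of 66 values were that low. Low-share vessel libraries had counts for 4104 to 8752 IDs and high-share ones for 9875 to 11974. Missing counts were thus not particular to the 6 genes, and the share of zeros among IDs of like level is not given. Kdr had no count in 7 of the 8 low-share vessel libraries, the exception being Wistar animal 340 with 5.03 CPM. Flt1 had 2 counts in the vessel library of animal 374 and 1 count in that of animal 377, both SHRSP, but 142 CPM in SHRSP animal 386. Abcb1a had 1 count in animal 377 and 0 in Wistar animal 343. Nos3 was at 0 in animals 386 and 346, and Vwf at 0 in animal 343. So 7 of the 11 zeros were in Kdr, and the genes missing or nearly missing besides Kdr differed between animals. The vessel library of animal 377, with 1 count each of Abcb1a and Flt1, was the one with the highest Slc2a1 level of all, 628 CPM. In those libraries 3 counts, the limit that a count of 0 allows, correspond to 0.767 to 1.86 CPM. The low-share animals' neuron libraries did not share this feature: 1 of their 48 values was 0, Kdr in animal 343.

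As a share of the counts of all 6 genes together, the make-up of the vessel libraries varied accordingly. In high-share animals Slc2a1 took 9.64 to 30.2%, Abcb1a 17.4 to 45.3%, Flt1 14.2 to 29.4%, Kdr 1.28 to 7.68%, Nos3 4.78 to 12.02% and Vwf 11.8 to 31.2% of the sum. In low-share animals the same shares spanned 6.17 to 65.9% for Slc2a1, 0 to 67.8% for Abcb1a and 0.0651 to 70.2% for Flt1. The sum itself varied less than its parts. Low-share vessel libraries had 0.0185 to 0.0952% of their counts in the 6 genes, and high-share vessel libraries 0.0523 to 0.107%. No cause of the missing counts was tested.

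**Figure D2:**
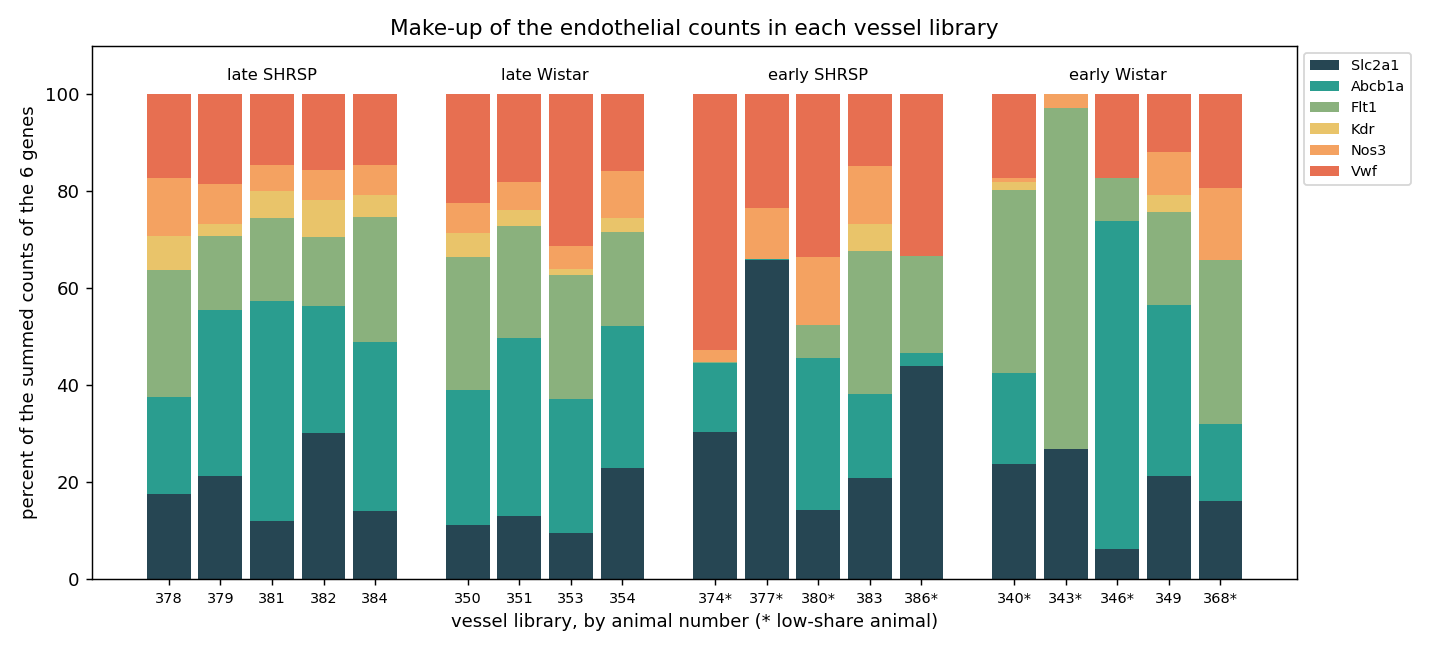
Percent of the summed counts of the 6 genes taken by each gene, 1 bar per vessel library, by group; an asterisk marks a low-share animal. High-share bars hold all 6 genes, while the bars of 7 of the 8 low-share animals lack 1 or more of them.

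Vessels were compared with neurons within animals, to measure how far the endothelial genes follow the cut vessels. The neuron libraries were not free of the 6 genes. Over the 19 neuron libraries the lowest, median and highest levels were 12.7, 27.9 and 44.2 CPM for Slc2a1, 24.7, 40.1 and 66.6 CPM for Abcb1a, and 17.04, 46.1 and 60.6 CPM for Flt1. Kdr was 0 to 18.7 CPM with a median of 7.04 CPM, Nos3 was 0.953 to 12.9 CPM with a median of 5.22 CPM, and Vwf was 2.98 to 13.0 CPM with a median of 6.76 CPM. Part of the make-up differed from that of the vessels. Among high-share animals Vwf was 11.8 to 31.2% of the summed counts of the 6 genes in vessel libraries and 2.23 to 7.87% in neuron libraries, without overlap. Flt1 was 14.2 to 29.4% in vessel libraries and 27.2 to 38.7% in neuron libraries, and Nos3 had medians of 6.32% in vessels and 2.24% in neurons. The medians lay closer for the other 3 genes, at 17.7% in vessels and 15.6% in neurons for Slc2a1, 29.4% and 32.8% for Abcb1a, and 4.40% and 4.35% for Kdr in the same order.

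Within animals, scaling all 38 libraries together, every one of the 66 pairs of a gene and a high-share animal had the higher level in the vessel library. The ranges of the 11 vessel and 11 neuron libraries did not overlap for 5 of the 6 genes, Kdr being the exception, against 2.81% of all tested IDs that were higher in vessels without overlap. For Vwf these ranges were 77.5 to 189 CPM in vessels and 3.10 to 13.0 CPM in neurons. For Kdr they were 7.79 to 69.3 CPM in vessels and 4.08 to 17.7 CPM in neurons. In the low-share animals 29 of 48 pairs were higher in vessels. Kdr was lower in the vessel library in 7 of those 8 animals and at 0 in both libraries of the eighth. Most IDs were lower in vessels there. In an edgeR fit on low-share animals alone, the median log2 fold in early SHRSP was 0.893 over the 6 genes and -4.79 over all IDs. In early Wistar these medians were 0.521 and -2.135.

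**Figure D3:**
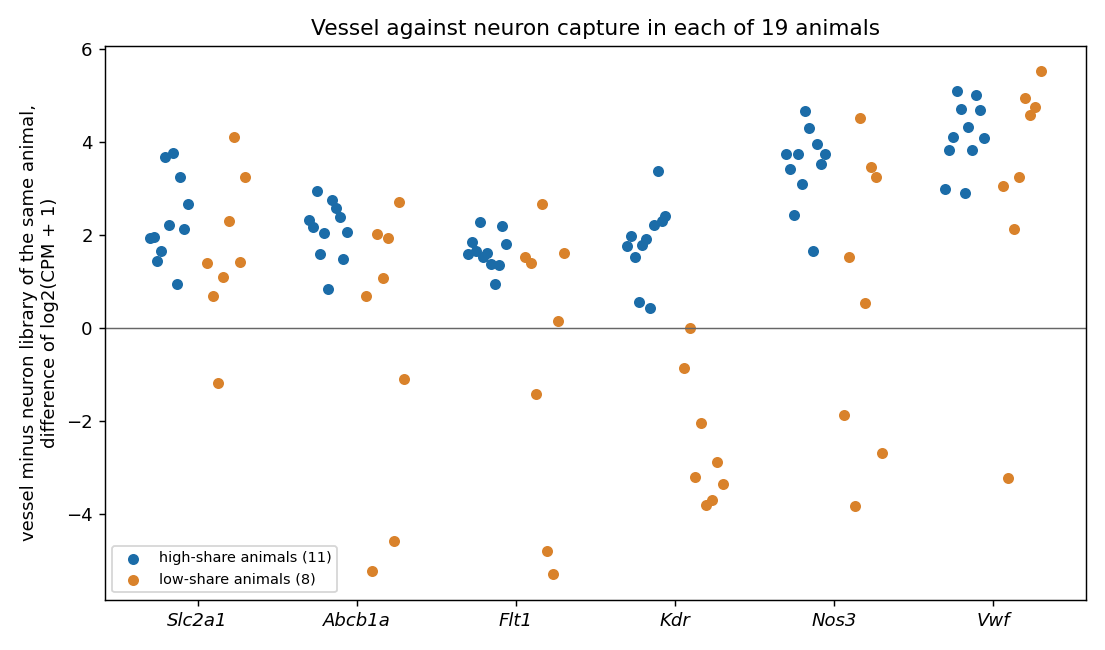
Difference between the vessel and the neuron library of the same animal, in log2(CPM + 1) on a scale shared by all 38 libraries, for each gene; each point is 1 animal. High-share animals lie above 0 for every gene; low-share animals spread to both sides of 0, except for Kdr, where they lie at or below 0.

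Over all 19 animals, with the animal as a block and the 4 animal groups weighted equally, 4 of the 6 genes were higher in vessels by edgeR's quasi-likelihood test at an adjusted p under 0.05. Of all 12117 IDs tested, 3.08% were called higher in vessels and 47.5% lower. The median log2 fold was 1.75 over the 6 genes and -1.63 over all IDs. The platelet-binding Vwf had a log2 fold of 4.08 (SE 0.61, 16.9-fold, adjusted p = 3.34e-09), and Nos3 was 6.85-fold higher (2.78, SE 0.84, adjusted p = 0.00448). Slc2a1 was 4.28-fold higher (2.10, SE 0.50, adjusted p = 0.000362) and Abcb1a 2.66-fold higher (1.41, SE 0.51, adjusted p = 0.0154). The receptor genes were not called: Flt1 had a log2 fold of 0.93 (SE 0.57, 95% interval -0.19 to 2.04, adjusted p = 0.154) and Kdr one of -1.03 (SE 0.79, -2.58 to 0.53, adjusted p = 0.262). The receptors' outcome changed without the low-share animals. In the 11 high-share animals alone 6 of 6 genes were called higher in vessels, where 5.09% of 14126 IDs were. The log2 folds there were 4.30 for Vwf (SE 0.36), 3.86 for Nos3 (SE 0.52), 2.28 for Slc2a1 (SE 0.32), 2.09 for Abcb1a (SE 0.25), 2.09 for Kdr (SE 0.61, edgeR adjusted p = 0.0125) and 1.82 for Flt1 (SE 0.25). Leaving out animal 374 or animal 377 alone was enough for Flt1 to be called.

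Group by group, fewer genes were called. Each of these contrasts rests on 4 or 5 animals, with the spread shared among all 19. In late SHRSP, Vwf was higher in vessels (4.26, SE 1.12, edgeR adjusted p = 0.0209), as were 0.693% of IDs, while 0.19% were lower. The other 5 genes had positive log2 folds of 1.44 to 4.13 that did not pass. This call was lost without any 1 of the 5 late SHRSP animals, with an adjusted p of up to 0.201 over the omissions. In late Wistar no gene was called (Vwf 4.66, SE 1.26, edgeR adjusted p = 0.0532), with 0.33% of IDs called higher and 0.0413% lower. A fit on the high-share animals alone, which leaves these 9 late animals in full, called 6 of 6 genes higher in late SHRSP vessels (4.32% of IDs) and 5 of 6 in late Wistar vessels (3.38% of IDs). Kdr in late Wistar was the exception, at 1.61 (SE 0.75, edgeR adjusted p = 0.240).

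At the early stage, Slc2a1 (2.67, SE 0.97, edgeR adjusted p = 0.0245) and Vwf (5.12, SE 1.15, edgeR adjusted p = 0.000574) were higher in SHRSP vessels than in SHRSP neurons, where 1.16% of IDs were higher. The Slc2a1 call was lost without animal 377 or animal 386. Kdr was called lower (edgeR adjusted p = 0.0291), where 38% of IDs were lower. That call rests on zeros: Kdr was 0, 0, 0, 40.4 and 0 CPM in the vessels of animals 374, 377, 380, 383 and 386, against 12.8, 11.5, 6.02, 7.04 and 8.80 CPM in their neurons. The single high-share animal, 383, had the higher Kdr level in its vessels, and the call was lost without any 1 of the other 4. In animal 383 alone Vwf had a log2 difference of 5.14 and Slc2a1 one of 2.24, with no spread of its own group behind them. In early Wistar none of the 6 genes was called, with 0.305% of IDs higher and 0.371% lower. The log2 folds of the 6 genes there lay between -2.19 for Kdr, fitted over 3 vessel libraries at 0, and 2.26 for Vwf. Whether the material difference itself changed with strain or stage was tested in the same fit. None of the 6 genes passed for strain, nor did any ID (0% of 12117 by edgeR, with 686 IDs at an unadjusted p under 0.05; DESeq2 called 320 IDs and limma voom 1, and neither called one of the 6 genes), and none passed for stage, where 0.0413% of IDs did. Kdr came nearest for stage, with a log2 difference of 5.90 (SE 1.81, edgeR adjusted p = 0.0690), a fitted value that rests on the 7 libraries at 0 and that was -0.30 in high-share animals. DESeq2 (adjusted p = 0.000127) and limma voom (adjusted p = 0.0299) did call it, where they called 26.6% and 3.03% of IDs in the same direction.

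The strain comparison in vessels asks which genes differ between the hypertensive strain and the controls. At the early stage Slc2a1 and Vwf had the 2 largest strain differences of the 6 genes, both higher in SHRSP, and neither passed the test over all IDs. Slc2a1 was 225, 628, 107, 151 and 313 CPM in the vessels of early SHRSP animals 374, 377, 380, 383 and 386, and 70.8, 43.1, 14.5, 153 and 57.6 CPM in those of early Wistar animals 340, 343, 346, 349 and 368. The groups overlapped through Wistar animal 349, whose level exceeded that of 2 SHRSP animals. The fold was 4.20 (log2 2.07, SE 0.85, 95% interval 0.40 to 3.74, adjusted p = 0.207 by edgeR's test).

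Vwf was 389.8, 224, 251, 106 and 237 CPM in early SHRSP vessels, and 51.1, 0, 40.2, 84.4 and 68.5 CPM in early Wistar vessels, in the same order of animals. The lowest SHRSP library, animal 383, lay above the highest Wistar library, animal 349, so the groups did not overlap. Vwf was the only 1 of the 6 genes without overlap, against 0.218% of all IDs higher in SHRSP without overlap. The fold was 4.94 (log2 2.31, SE 0.90, 95% interval 0.54 to 4.07, adjusted p = 0.185 by edgeR's test). Thus 0 of 6 genes were called, where 0.254% of 11011 IDs were. DESeq2 called both genes (adjusted p = 0.0271 for Slc2a1 and 0.0444 for Vwf) and 1.38% of IDs as higher in SHRSP, and limma voom called 0 of the 6. At an unadjusted p under 0.05 edgeR's test gave these 2 of the 6 genes and 15.3% of all IDs.

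Values within each library set are given here, and a difference between the sets was not tested. The 2 early high-share animals had 151 CPM (SHRSP 383) and 153 CPM (Wistar 349) of Slc2a1, a log2 difference of -0.04, and 106 and 84.4 CPM of Vwf, a log2 difference of 0.31. This sets 1 library against 1, so it carries no replicate error of the early groups. Among the 8 low-share animals alone the log2 folds were 2.64 for Slc2a1 (SE 1.47) and 2.66 for Vwf (SE 1.64), with an edgeR adjusted p of 1 for each. Detection overlapped between the strains: early SHRSP vessel libraries had counts for 6539 ± 2248 IDs and early Wistar vessel libraries for 7867 ± 2438 IDs (SD, n = 5 each). The share of the most abundant ID in low-share vessel libraries did not overlap, at 6.45 to 7.54% in SHRSP and 9.73 to 16.3% in Wistar. The part of either value in the result was not tested. The sum of the 6 genes was 0.0625 to 0.0952% of all counts in early SHRSP vessels and 0.0185 to 0.0523% in early Wistar vessels.

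Like Slc2a1 and Vwf, the other 4 genes were not called between the strains in early vessels by edgeR's test over all vessel libraries. This lack of calls does not show that the strains were alike. Abcb1a was 106, 0.620, 235, 126 and 19.2 CPM in early SHRSP vessels and 55.7, 0, 159, 252 and 56.3 CPM in early Wistar vessels. Flt1 was 0.924, 0.620, 50.9, 213 and 142 CPM in early SHRSP vessels and 112, 112, 20.9, 138 and 120.5 CPM in early Wistar vessels. The strains' ranges overlapped for both genes, and their log2 folds were -0.10 (95% interval -1.68 to 1.47) and -0.30 (-2.12 to 1.52). Nos3 was 19.4, 99.2, 106, 87.0 and 0 CPM in early SHRSP vessels and 2.32, 4.61, 0, 64.9 and 52.5 CPM in early Wistar vessels, a log2 fold of 1.32 (-1.51 to 4.16). Kdr was at 0 in 4 of 5 early SHRSP and 3 of 5 early Wistar vessel libraries, so its fitted fold rests on the 3 libraries with counts and is not described.

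At the late stage, where all 9 animals were high-share, the ranges of the strains overlapped for each of the 6 genes. Slc2a1 was 108, 209.6, 65.0, 275 and 84.3 CPM in the vessels of late SHRSP animals 378, 379, 381, 382 and 384, and 75.8, 101, 59.0 and 179 CPM in those of late Wistar animals 350, 351, 353 and 354. Vwf was 106, 181, 78.3, 142 and 86.9 CPM in late SHRSP vessels and 152, 138, 191 and 122 CPM in late Wistar vessels. Both genes overlapped between the strains, and for Vwf the mean was the higher one in Wistar, 119 ± 42.6 CPM in SHRSP and 151 ± 29.3 CPM in Wistar (SD, n = 5 and 4). Kdr was 41.9, 24.4, 29.2, 69.9 and 26.4 CPM in late SHRSP vessels and 34.1, 24.3, 7.86 and 21.8 CPM in late Wistar vessels. Flt1 was 137 ± 27.5 CPM in late SHRSP and 167 ± 16.4 CPM in late Wistar, Abcb1a 229.9 ± 77.0 and 217 ± 49.5 CPM, and Nos3 55.6 ± 22.1 and 47.9 ± 20.1 CPM in the same order. None of the 6 genes was called by edgeR, nor was any ID (0%, with 102 IDs and none of the 6 genes at an unadjusted p under 0.05). DESeq2 called 11 IDs and limma voom 0, again none of the 6 genes. The fit on all vessel libraries left wide 95% intervals for the log2 strain differences, for example -1.20 to 2.23 for Slc2a1 and -3.02 to 4.62 for Kdr. The lack of calls therefore does not show that the strains were alike. In the fit on high-share animals the log2 strain differences had 95% intervals of -0.19 to 1.21 for Slc2a1, -0.51 to 0.67 for Abcb1a, -0.92 to 0.34 for Flt1, -0.44 to 2.03 for Kdr, -0.67 to 1.09 for Nos3 and -1.01 to 0.32 for Vwf.

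**Figure D4:**
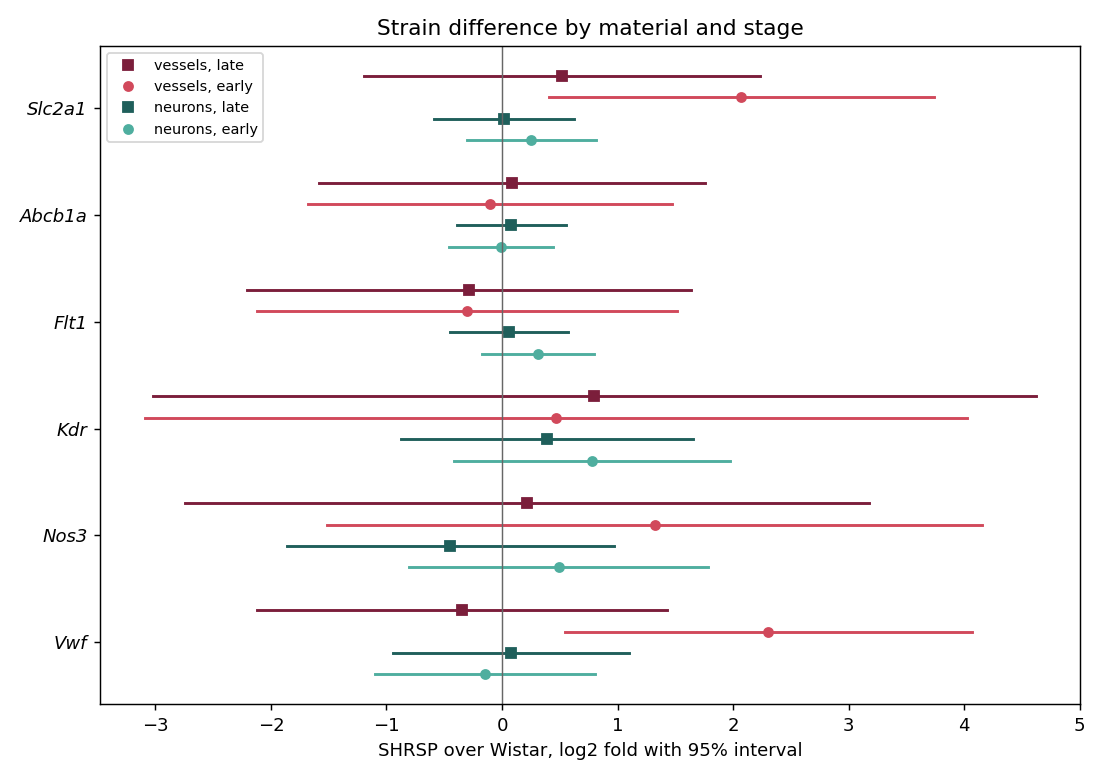
Log2 fold of SHRSP over Wistar with its 95% interval from edgeR's quasi-likelihood fit, for each gene, in vessels and neurons at the late and early stage. The early vessel intervals of Slc2a1 (0.40 to 3.74) and Vwf (0.54 to 4.07) lie above 0, while neither gene passed after adjustment over all IDs; every other interval includes 0.

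With both stages weighted equally, 0 of 6 genes were called between the strains in vessels, where 0.0817% of IDs were. Slc2a1 had the smallest p, with a log2 fold of 1.29 (SE 0.61, edgeR adjusted p = 0.521), and in high-share animals the value was 0.24 (SE 0.41). A dependence of the strain difference on stage was also called for 0 of 6 genes and for 0.00908% of IDs. For Vwf the strain difference was lower at the late stage by 2.65 on the log2 scale (log2 -2.65, SE 1.26, edgeR adjusted p = 0.641), and in high-share animals the value was -0.66 (SE 0.79). Between stages within a strain, late against early, 0 of 6 genes were called in SHRSP vessels (0.00908% of IDs) and 0 of 6 in Wistar vessels (0.00908% of IDs), and none had an unadjusted p under 0.05 in edgeR's test. In Wistar vessels the 6 log2 folds were positive, 0.61 to 1.90, and their median was 0.997, against 0.21 over all IDs. In high-share animals, with 1 early animal, 2 of the 6 were positive, with a median of -0.19 against 0.09 over all IDs. With library set as a term 4 of the 6 were positive, with a median of 0.11 against -0.09 over all IDs. In SHRSP vessels they ran between -1.02 for Vwf and 2.24 for Kdr. The Kdr values, 1.90 in Wistar and 2.24 in SHRSP, are fitted over early libraries at 0 and are no bounds. Mean Abcb1a levels were 229.9 ± 77.0 CPM in late SHRSP and 97.4 ± 94.1 CPM in early SHRSP (SD, n = 5 each), and 217 ± 49.5 CPM in late Wistar (n = 4) and 105 ± 101 CPM in early Wistar (n = 5). Since 8 of the 10 early animals and none of the late ones were low-share, these stage differences and the library set cannot be told apart.

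In neuron libraries the 6 genes gave 0 calls in any of 6 comparisons. Between strains the log2 folds were -0.15 to 0.78 at the early stage (0.222% of IDs called) and -0.45 to 0.39 at the late stage (0.0369% of IDs called). The 95% intervals were narrow for Abcb1a, -0.46 to 0.44 early and -0.39 to 0.55 late, and for Flt1, -0.17 to 0.80 early and -0.45 to 0.58 late. They were wide for the genes with few counts, reaching from -1.86 to 0.97 for Nos3 at the late stage. The mean over both stages was called for 0.674% of IDs and the change with stage for 0%, where 254 IDs had an unadjusted p under 0.05 by edgeR, and DESeq2 and limma voom called 0 IDs as well. At an unadjusted p under 0.05 none of the 6 genes passed in these 4 strain comparisons of neurons, and 2 passed late against early in SHRSP, where 26.4% of all IDs did.

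Late against early, 8.85% of IDs in SHRSP neurons and 9.31% in Wistar neurons were called, and still none of the 6 genes. The nearest was Slc2a1 in SHRSP neurons, with 22.2, 15.0, 31.8, 27.9 and 12.7 CPM in late animals 378, 379, 381, 382 and 384 and 44.2, 33.9, 36.7, 31.9 and 30.3 CPM in early animals 374, 377, 380, 383 and 386. The groups overlapped only through late animal 381, and the log2 fold was -0.68 (SE 0.28, edgeR adjusted p = 0.118). Abcb1a had a log2 fold of 0.49 in the same comparison (SE 0.22, edgeR adjusted p = 0.153), with 50.2 ± 10.6 CPM in late and 35.6 ± 6.24 CPM in early SHRSP neurons (SD, n = 5 each). In Wistar neurons the log2 folds of these genes were -0.44 for Slc2a1 and 0.40 for Abcb1a, neither of them called. In high-share animals, with 1 early animal per strain, the log2 folds in SHRSP neurons were -0.53 for Slc2a1 and 0.24 for Abcb1a. The values in Wistar neurons were -0.83 for Slc2a1 and -0.06 for Abcb1a. As in vessels, these stage differences and the library set cannot be told apart.

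The order of the group means in vessels was not the same for all genes. Early SHRSP was the highest of the 4 vessel groups for Slc2a1 (285 ± 207 CPM), Vwf (242 ± 101 CPM) and Nos3 (62.3 ± 49.0 CPM), and early Wistar the lowest for the same 3 genes (67.9 ± 52.2, 48.8 ± 32.1 and 24.9 ± 31.2 CPM). For Abcb1a, Flt1 and Kdr the 2 late groups came first and the 2 early groups last. In each of these orders, neighbouring groups overlapped in range. In neurons the group means lay closer, for example 21.7 ± 9.37 CPM (late Wistar) to 35.4 ± 5.46 CPM (early SHRSP) for Slc2a1 and 39.0 ± 14.0 CPM (early Wistar) to 50.2 ± 5.97 CPM (late SHRSP) for Flt1. The likeness of other IDs to the 6 genes was measured as the root mean square difference of centred log2(CPM + 1) from the genes' mean over the 38 libraries. The 3 closest IDs were ENSRNOG00000012840 (0.877), ENSRNOG00000051688 (0.890) and ENSRNOG00000017123 (0.894), where the median of 12111 other IDs was 1.94. Of these ENSRNOG00000051688 had a median level of 0 CPM in both materials, and no fold is given for it. ENSRNOG00000012840 had median levels of 1151 CPM in vessels and 369 CPM in neurons, and ENSRNOG00000017123 had 889 CPM in vessels and 181 CPM in neurons. The 6 genes themselves lay 1.08 (Slc2a1) to 1.51 (Vwf) from their own mean, and 68 to 1333 other IDs lay closer to that mean than a given one of them.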

How the data were processed

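Per the labels' protocols, the PicoPure kit was used for RNA and Lexogen's QuantSeq forward kit, which reads 3′ ends, for the libraries. The authors deposited 1 table of raw counts per Ensembl gene ID, 32883 IDs in 38 libraries, and 0 rows named no gene. HTSeq 0.6.1, STAR 2.5.3a, DESeq2 1.18.1 and FastQC 0.11.5 are listed in the submitters' processing notes. Build, annotation and strand setting were not given in the sources used here. Reads of overlapping or antisense genes therefore cannot be told apart. Libraries held 1198386 to 4963429 counts, without molecular identifiers, so floors derived from them cover only the error of counting.

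The counts were tested with edgeR 4.0.16 (R 4.3.3) using TMM scaling, filterByExpr by group, the robust quasi-likelihood F test, two-sided, and Benjamini-Hochberg adjustment over all IDs tested, with calls at an adjusted p under 0.05. Vessel and neuron libraries were each fitted with 4 groups. Materials were compared over all 38 libraries with the animal as a block and a vessel term per animal group. All 6 genes passed the filters of the fits on all vessel, all neuron and all 38 libraries. In early vessels 5 of the 6 passed when only the low-share animals or only the 2 early groups were fitted. In late neurons 5 of the 6 passed when only the 2 late groups were fitted. Alternatives were another scaling, no filter, DESeq2 1.42.0, limma 3.58.1 voom, subsets of animals, library set as a term and omission of each animal. The steps were also run on simulated counts, with the same mean for an ID in all libraries apart from the changes put in. These counts had no library sets and no differences between animals, so they do not bear on either. The animal number in the titles pairs the materials. As a check, the paired deviations from the group means correlated at -0.21 to 0.42 (median 0.03, 19 pairs, 4378 IDs). By this measure the neuron library most like a vessel library had the same number in 3 of 19 animals. The check therefore does not bear out the pairing, which rests on the titles. No 2 libraries of a group agreed within sampling noise (72 pairs). Gene names of the 6 IDs come from the rule that chose them, and 0 IDs matched a table of names, so lists of other cell types' markers fixed by symbol were not used here. All 6 genes were tested in every comparison as reported, but some comparisons give only some of them by name. The members, lists and library sets were chosen with earlier results of these data known.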

Additional observations from a re-analysis of the deposited data

Results flagged for a closer look

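In 5 of 48 combinations of a gene and a group, the highest or lowest library lay far from the rest by Dixon's criterion. For normally distributed values chance gives about 1 in 20 groups, or 2.4. The levels here include ties at 0, and the early groups mix the library sets, so that rate need not hold. Of the 5 combinations, 3 are in early vessels. Kdr was 40.4 CPM in SHRSP animal 383, while the other 4 early SHRSP vessel libraries were at 0. Kdr was 24.4 CPM in Wistar animal 349, against 0 to 5.03 CPM in the other 4 early Wistar vessel libraries. Animals 383 and 349 are the 2 early high-share animals. Flt1 was 20.9 CPM in the vessel library of early Wistar animal 346, the lowest of its group. In neurons, Flt1 was 32.9 CPM in late Wistar animal 353, the lowest of its group, and Nos3 was 8.29 CPM in late SHRSP animal 381, the highest of its group.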

How the results depend on the processing

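Over all animals, the calls of Vwf, Nos3 and Slc2a1 as higher in vessels held under each of 27 alternatives. That of Abcb1a was lost with library set as a term (edgeR adjusted p = 0.0693). This term places the material difference of all 4 animal groups midway between the library sets, though no late animal was low-share. Size-factor scaling moved the median log2 fold of all IDs in this comparison to -1.44, against -1.63, and that of the 6 genes to 1.94. Kdr, which was not called at -1.03, was 2.09 in high-share animals, 0.93 without the animal as a replicate block and 0.0829 with 1 material term (an alternative added after the data were seen). Without the block 5 of the 6 genes were called over all animals (7.77% of IDs higher), 2 in late SHRSP (1.32%) and 1 in late Wistar (0.437%). The shares of IDs below are in the same direction as the genes' calls unless stated.

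In early SHRSP, Flt1 between the materials was 2.30 in the 1 high-share animal, 383, and 0.69 without the block, and -2.13 to 0.32 over the omissions of 1 animal, positive without 374 or 377; Kdr was 2.52 in animal 383. The number of genes called there was 1 with library set as a term (0.817% of IDs) and 1 to 3 over the omissions (19.5 to 45.3% either way). In early Wistar DESeq2 called 1 (1.72%). In late SHRSP DESeq2 called 3 (2.84%), voom 2 (1.87%), the high-share fit 6 (4.32%) and the omissions 0 to 1 (0.374 to 1.03%). With library set as a term 0 were called there (0.338%), and Kdr was -1.69. That setting places a material difference midway between the library sets, and no late animal was low-share. Its late values therefore rest on the early low-share libraries too. Kdr was higher in the vessel library in every late SHRSP animal. In late Wistar size-factor scaling (0.371%) and voom (0.668%) called 1 each, DESeq2 2 (1.25%), the high-share fit 5 (3.38%) and the omissions 0 to 1 (0.153 to 0.536%). For the change of the material difference with stage, DESeq2 (26.6%) and voom (3.03%) called 1 gene each, and the omissions 0 to 1 (0 to 11.3%), Kdr being called without 349 or 383; its value was -0.30 in high-share animals and -0.26 with library set as a term.

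For strain in early vessels DESeq2 called 2 genes (1.38%) and the omissions 0 to 1 (0.0639 to 10.5% either way). Slc2a1 was -0.0382 in the 2 high-share animals. Kdr was -0.60 with voom, -3.50 with library set as a term and -7.34 to 2.72 over the omissions, called without animal 383 alone, when every SHRSP library left was at 0; these Kdr values are fitted over zeros and are no bounds. For late against early in SHRSP vessels voom called 1 gene (13.1%) and the omissions 0 to 1 (0 to 11.8%), and Kdr was -0.0678 in high-share animals. Of 2973 combinations of gene, comparison and alternative, 2711 passed neither as reported nor under the alternative, 185 of them with the other sign. The causes of the zeros were not tested. In neurons levels were lowest for Kdr, Vwf and Nos3, at medians of 7.04, 6.76 and 5.22 CPM, and whether depth limits them was not tested. Late against early rests on 1 high-share early animal per strain.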
